A study of Mus musculus with 3 samples.

Results

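The chemokines, the interleukins and their receptors were examined in proximal incisor mesenchyme of DKO mice. The genes were chosen by symbol alone, from the chemokine and interleukin naming families, among protein-coding genes of the deposited table, which gave 72 of 15252 protein-coding and 19381 listed genes. The 72 comprised 22 chemokine ligands, 10 chemokine receptors, 4 atypical chemokine receptors, 11 interleukins or interleukin antagonists and 25 interleukin receptor chains. DKO mice carried the tamoxifen-inducible recombinase Gli1-CreER and floxed alleles of both Arid1a and Arid1b, written Arid1afl/fl and Arid1bfl/fl, which encode alternative subunits of the BAF chromatin remodeling complex. The mice, 1 month old, received tamoxifen by intraperitoneal injection (1.5 mg for every 10 g of weight) and were sampled 4 days afterwards. Because the Gli1 promoter drives the recombinase, recombination is limited to cells that expressed Gli1 around the injection and to their descendants, while the tissue was sequenced whole. The 3 libraries, replicates 1 to 3, were the only group, so no genotypes were compared. Nothing in the labels says that they came from separate animals, and the spread between them may be technical.

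Chemokines are small secreted proteins that bind G-protein-coupled receptors and direct the movement of leukocytes, stem cells and endothelial cells. Atypical receptors bind the same ligands but take them up instead of signalling through G proteins. Interleukins signal mainly through receptor chains that recruit JAK kinases and STAT factors or, in the IL-1 family, the adaptor Myd88. In dental pulp as in other stromal tissues, mesenchymal cells are known as a source of Cxcl12, and resident macrophages carry many of the chemokine receptors.

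All values are normalized counts as deposited, scaled to a common upper quartile, given in the order of replicates 1, 2 and 3 or as mean ± SD (n = 3). Totals of the columns lay between 958773 and 986401. The mesenchyme markers Vim, Prrx1, Pdgfra, Msx1, Msx2, Dlx5 and Gli1 were all at a mean of at least 10. So were 8 of 8 macrophage, 6 of 6 endothelial, 4 of 4 mural and 5 of 5 dental epithelium markers, 2 of 4 monocyte and 2 of 3 lymphatic markers, and 1 of 4 mast cell (Kit) and 1 of 4 Schwann cell markers. None of the listed neutrophil, T cell or B cell markers (4, 3 and 2 genes) reached 10. Several lists differed between libraries. Summed macrophage markers stood at 826, 1092 and 1149, summed endothelial markers at 323, 339 and 450, and 15 interferon-induced genes at 1556, 379 and 379. Summed monocyte markers, with the member Ccr2 among them, were highest in replicate 1, at 49.2, 28.7 and 30.8. Replicate 1 was thus low in summed macrophage markers and high in summed monocyte markers and interferon-induced transcripts. Replicate 3 was high in endothelial transcripts. In whole tissue, fewer cells of a type and less RNA per cell cannot be told apart.

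Most genes of the family were weakly expressed. A mean of at least 10 was reached by 19 of 72 members (26.4%), against 66.5% of all protein-coding genes, and a mean of at least 1 by 47 (65.3%), against 88.2%. The median member stood at 2.38 and the median protein-coding gene at 21.5. At least 10 was reached by 4 of 22 chemokine ligands, 4 of 10 chemokine receptors, 1 of 4 atypical receptors, 1 of 11 interleukins and 9 of 25 interleukin receptor chains. After division by exon length, 8 members had a mean of at least 10. The 25 members below 1 ran from 0.0267 for Il11ra2 to 0.9995 for Ccl5, and included the cytokines Il1a and Il10, the alarmin Il33, the neutrophil attractant Cxcl1 with its receptor Cxcr2, the lymphocyte receptors Il2ra, Il2rb, Il7r, Cxcr3 and Cxcr6, and the lymphoid chemokines Ccl19 and Cxcl13. The others below 1 were Ccl3, Ccl4, Ccl24, Ccl28, Ackr2, Il11, Il12b, Il13ra2, Il17rb, Il18rap and Il23r.

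**Figure D1:**
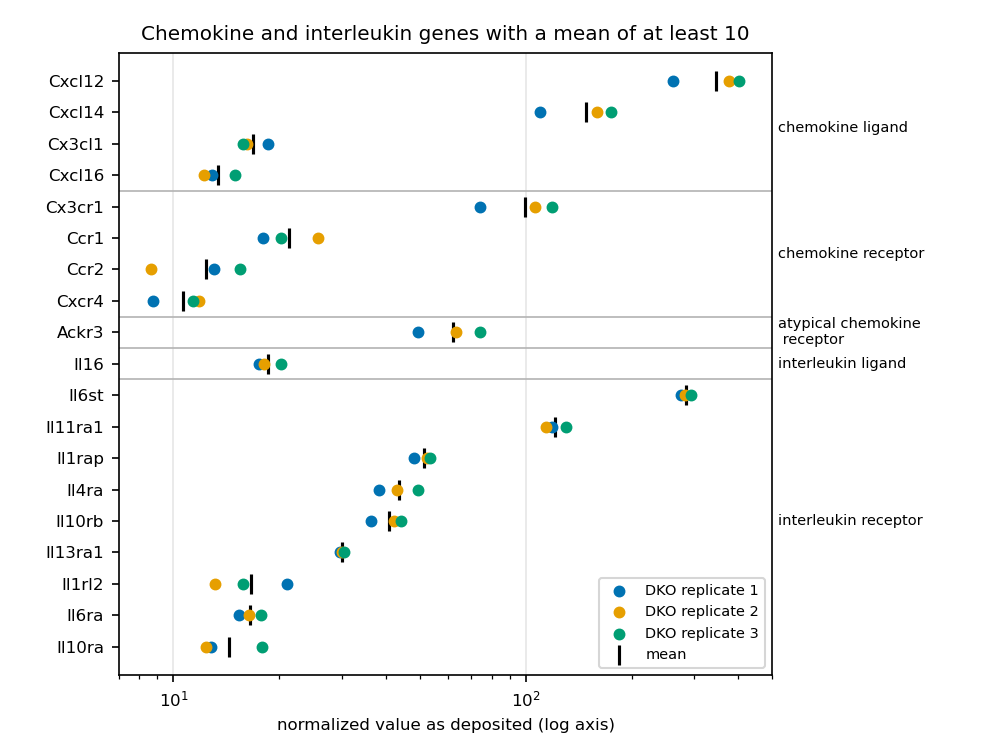
Deposited normalized values (log axis) of the 19 chemokine and interleukin genes with a mean of at least 10, grouped by role; points are the 3 DKO libraries and the bar is their mean. Cxcl12 (262 to 402) and Il6st (275 to 293) stand highest as deposited, and replicate 1 is the lowest library for 13 of the 19.

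Among chemokine ligands, Cxcl14 and Cxcl12 were the most abundant per length. Cxcl14 (chromosome 13, 56288643 to 56296552, mm10), a homeostatic chemokine of epithelia and stroma, was at 109.8, 159 and 175. Cxcl12 (chromosome 6, 117168535 to 117181368), the ligand that holds stem cells and leukocytes in their niche, was at 262, 377 and 402. Both were lowest in replicate 1 and highest in replicate 3. Per kilobase of exon, Cxcl14 stood at 81.0 ± 18.6 and Cxcl12 at 42.4 ± 9.11, and the ranges of these per-kilobase levels did not overlap. In each library these genes made up much of the per-kilobase total of the 22 chemokine ligands, Cxcl14 with a share of 46.1% ± 7.67 and Cxcl12 with 24.2% ± 3.79 (SD, n = 3).

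Both receptors of Cxcl12 were expressed, and the atypical one more than the signalling one. Ackr3 (chromosome 1, 90203980 to 90216752), the scavenger that takes up Cxcl12, was at 49.5, 63.2 and 74.2. Cxcr4 (chromosome 1, 128588199 to 128592294), the receptor that signals through G proteins, was at 8.74, 11.8 and 11.4. Replicate 1 was the lowest library for ligand and for both receptors. Per kilobase, Ackr3 stood at 18.6 ± 3.69 and Cxcr4 at 5.89 ± 0.924, and no library of Cxcr4 (highest 6.55) reached the lowest of Ackr3 (14.8). On the log2(value + 1) scale per kilobase, Cxcl12 exceeded Ackr3 by 1.16 ± 0.09 and Cxcr4 by 2.71 ± 0.13, each in 3 of 3 libraries. Flipping signs over the libraries (exact permutation test, two-sided) gave p = 0.25 for both receptors, which no result from 3 libraries can undercut.

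The fractalkine pair ran the other way, with the receptor above the ligand. Cx3cr1 (chromosome 9, 119901616 to 120069880), the fractalkine receptor of macrophages and monocytes, was at 73.9, 106 and 118. Its ligand Cx3cl1 (chromosome 8, 94772009 to 94782428), a membrane-bound chemokine, was at 18.5, 16.1 and 15.8. The receptor was lowest in replicate 1, where the ligand was highest. Per kilobase, Cx3cl1 lay below Cx3cr1 by a log2 difference of -2.28 ± 0.47, with the same direction in 3 of 3 libraries (p = 0.25 by the same exact permutation test). The order of Cx3cr1 over the libraries was that of the summed macrophage markers given above. It was also that of the summed endothelial, mesenchyme and Schwann cell markers, so it is not particular to macrophages. Of the 8 macrophage markers, 7 were also lowest in replicate 1, against 38.4% of protein-coding genes with a mean of at least 10. Csf1r was among these markers, at 173, 228 and 246. Their part in the Cx3cr1 values was not tested.

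Other receptors of monocytes and macrophages were lower and did not share a single library order. Ccr1 was at 17.9, 25.7 and 20.2, highest in replicate 2. Ccr2, the receptor that draws monocytes out of the blood, was at 13.0, 8.67 and 15.5, lowest in replicate 2. Ccr2 lies on chromosome 9 (124101950 to 124113558) and belongs to a family with near-identical stretches, so its values may include shared reads. Cx3cr1 held 54.0% ± 2.36 of the per-kilobase total of the 10 chemokine receptors and Ccr1 18.7% ± 2.86. Ccr3, an eosinophil receptor between Ccr1 and Ccr2 (chromosome 9, 124021972 to 124031690), was at 0.437, 2.58 and 6.94, a 15.9-fold range without a pseudocount. If the smallest value of each column stands for 1 read, these are 15, 94 and 298 reads, so the libraries differ by more than counting error. Ccr7 was at 0.583, 1.73 and 1.02.

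The inflammatory chemokines were low and several of them were highest in replicate 1. Cxcl10 (chromosome 5, 92346638 to 92348890), an interferon-induced ligand that attracts activated T cells through Cxcr3, was at 19.3, 5.05 and 5.15. Cxcl9 (chromosome 5, 92321347 to 92328080), a second ligand of Cxcr3, was at 8.53, 1.70 and 3.24. Replicate 1 exceeded the mean of the others 3.77-fold for Cxcl10 and 3.45-fold for Cxcl9, while the other libraries lay close together for Cxcl10 and less so for Cxcl9. Their receptor Cxcr3 was at 0.320, 0.797 and 1.02 and was lowest in replicate 1. The monocyte attractant Ccl12 was at 13.2, 5.52 and 6.08, a 2.27-fold excess in replicate 1. Ccl7 was at 4.89, 2.12 and 2.40, a 2.17-fold excess, and Ccl2 at 2.68, 1.65 and 1.58, a 1.66-fold excess. Ccl8 went differently, at 2.27, 1.57 and 4.15, highest in replicate 3. Ccl2, Ccl7, Ccl12 and Ccl8 lie in that order within 81.2 kb of chromosome 11 (82035571 to 82116800, plus strand). A second group on chromosome 11 (83525778 to 83664684) held Ccl5, Ccl9, Ccl6, Ccl3 and Ccl4. There, Ccl9 was at 9.44, 5.77 and 6.13 and Ccl6, also a myeloid chemokine, at 4.75, 5.11 and 5.29, so neighbouring genes differed in which library was highest.

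The interferon-induced list stood beside these chemokines. All 14 of its members with a mean of at least 10 were highest in replicate 1, against 31.0% of protein-coding genes at that level. The list was chosen with earlier results of these data known, so this count is a description and no test. Among the 14 were Oasl2 (357, 64.4 and 68.8) and Ifit1 (222, 38.7 and 35.6). Not every interferon-related value moved as far: Irf1 was at 26.4, 24.0 and 23.1. The part of interferon-induced transcription in the chemokine values was not tested.

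The promoters of Cxcl10, Cxcl9 and Cxcl14 are shown because the first and second were highest in replicate 1 and the third was lowest there. The sequences are RefSeq start regions of GRCm38.p6 (250 bases before the start to 50 after), minus strand in each case: Cxcl10 at chr5:92348840-92349139, Cxcl9 at chr5:92328030-92328329 and Cxcl14 at chr13:56296502-56296801. Capitals mark matches on either strand to the interferon-stimulated response element, searched as GAAANNGAAA, or to the kappa B consensus.

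Cxcl10: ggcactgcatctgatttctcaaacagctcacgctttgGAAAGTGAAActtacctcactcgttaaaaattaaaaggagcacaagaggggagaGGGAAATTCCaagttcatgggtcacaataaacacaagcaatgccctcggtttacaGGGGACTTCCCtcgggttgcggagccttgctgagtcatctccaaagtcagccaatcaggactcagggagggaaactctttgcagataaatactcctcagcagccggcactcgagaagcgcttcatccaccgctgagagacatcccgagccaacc

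Cxcl9: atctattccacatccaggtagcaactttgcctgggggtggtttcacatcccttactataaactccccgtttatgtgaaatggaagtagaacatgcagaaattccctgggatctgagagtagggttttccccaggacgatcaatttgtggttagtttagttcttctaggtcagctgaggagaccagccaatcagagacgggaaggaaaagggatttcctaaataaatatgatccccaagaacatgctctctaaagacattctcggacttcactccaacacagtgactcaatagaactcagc

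Cxcl14: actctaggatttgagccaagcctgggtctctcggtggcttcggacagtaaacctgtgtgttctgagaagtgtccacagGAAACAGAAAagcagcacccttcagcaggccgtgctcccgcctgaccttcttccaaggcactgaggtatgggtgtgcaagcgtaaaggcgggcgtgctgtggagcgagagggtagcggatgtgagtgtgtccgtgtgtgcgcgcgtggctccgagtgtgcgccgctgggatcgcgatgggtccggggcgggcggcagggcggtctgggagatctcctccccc

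The Cxcl10 window held a response element match at positions -213 to -204, counted from the start, and kappa B matches at -159 to -150, -104 to -95 and -103 to -94, the last pair overlapping in a single run. The Cxcl9 window held neither motif. The Cxcl14 window held a response element match at -172 to -163 although Cxcl14 was lowest in replicate 1. Of the 56 members with a window in the table, 4 held the response element (7.14%), namely Cxcl10, Cxcl14, Il1rap and Ccl19, against 3.99% of the 27025 genes with a window. By window, 3.44% of all 32851 held it. The kappa B consensus was in 9 of the 56 (16.1%), against 9.55% of genes and 8.46% of windows. These matches describe letters and not bound sites.

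The remaining chemokine ligands and atypical receptors were low. Cxcl16, a membrane-bound chemokine, was at 12.9, 12.2 and 15.0, while its receptor Cxcr6 stayed at 0.330 to 0.396. Ccl25 was at 7.92, 5.91 and 5.26, and Ackr4, which scavenges Ccl25, at 9.41, 4.45 and 8.50. Ccl22 was at 1.05, 1.43 and 2.47. Ackr1, a chemokine-binding protein of venules and red cells, was at 0.553, 2.78 and 2.66. The mean of replicates 2 and 3 was 4.91-fold above replicate 1. Ackr1 shares 361 of its 1405 annotated exon bases with Cadm3 on the same strand, so its values are uncertain.

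The abundant interleukin receptor chains of the IL-6 family had similar values in the 3 libraries. Il6st, the gp130 chain shared by receptors of the IL-6 family, was at 275, 283 and 293 (284 ± 9.10, SD, n = 3), a coefficient of variation of 3.21%. Il11ra1, which pairs with gp130 to bind IL-11, was at 118, 114 and 130. Il6ra, the IL-6 binding chain, was far lower at 15.3, 16.4 and 17.7. Per kilobase, Il11ra1 (27.0 ± 1.82) and Il6st (25.6 ± 0.820) had overlapping ranges and Il6ra stood at 1.91 ± 0.139. Together Il11ra1 and Il6st thus led the 25 receptor chains, with 27.3% ± 0.591 and 25.9% ± 0.691 of their per-kilobase total. Their ligand Il11 was at 0.466, 0.494 and 0.443, and Il6 is not analysed here. Il11ra2, a copy of Il11ra1, stood within 0.1 of 1 times the smallest value of each column, and Il11ra1 may share reads with such copies.

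Of the receptor chains for IL-4, IL-13 and IL-10, Il4ra, Il13ra1, Il10rb and Il10ra had means between 14.4 and 43.7, while Il13ra2, the decoy receptor of IL-13, had a mean of 0.333. Il4ra, shared by receptors of IL-4 and IL-13, was at 38.4, 43.2 and 49.3. Il13ra1, its partner, was at 29.8, 30.1 and 30.4, the narrowest spread of the members with a mean of at least 10 (coefficient of variation 1.08%). Were the smallest value 1 read, counting alone would give an error of 1.53% to 1.71% even for a value of 100, so such a narrow spread is no measure of precision. Il10rb, the broadly expressed chain of the IL-10 family, was at 36.4, 42.2 and 44.2, and Il10ra, the IL-10 specific chain of leukocytes, at 12.8, 12.4 and 17.9. Il4ra and Il10rb were lowest in replicate 1 and highest in replicate 3, whereas Il10ra was lowest in replicate 2. Il4 and Il13 are not analysed here, and Il10 stood at 0.408, 0.302 and 0.163.

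Receptor chains and ligands of the IL-1 family covered a wide range. Il1rap, the shared accessory chain, was at 48.1, 52.4 and 53.5. Il1r1, the IL-1 receptor and not a member by symbol, was at 30.3, 22.2 and 24.8, and Il1rl2, the IL-36 receptor, at 21.1, 13.1 and 15.7. These last receptors were highest in replicate 1 and lowest in replicate 2, and Il1rap was lowest in replicate 1. The ligands Il1b (1.34, 0.989 and 1.07) and Il1a (0.262, 0.879 and 0.512) and the antagonist Il1rn (1.40, 0.742 and 1.16) were near or below 1. Il18, made by epithelial and myeloid cells, was at 5.74, 3.74 and 3.45, and its receptor chains Il18r1 and Il18rap had means of 0.581 and 0.677. The decoy receptor Il1r2 had a mean of 0.0707. Il1rl1, the receptor of Il33, was at 1.75, 1.87 and 2.35, and Il33 itself at 0.437, 0.494 and 0.443.

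Of the interleukins, Il16 alone had a mean of at least 10, at 17.5, 18.0 and 20.2. Il16 shares 1202 of its 7865 exon bases with Stard5 on the opposite strand, and the strand setting of the counting is not given. Il15, a cytokine of lymphocyte survival, was at 4.31, 2.01 and 3.31, and its presenting chain Il15ra at 2.48, 0.907 and 0.769. Both were highest in replicate 1, Il15ra by 2.96-fold over the mean of the others. Il34, a second ligand of the macrophage receptor Csf1r, was at 2.71, 3.08 and 1.93. The lower receptor chains Il17ra (10.6, 9.20 and 9.78), Il21r (4.43, 4.97 and 4.71) and Il3ra (5.74, 3.93 and 4.33) were each above 3 in every library, and Il27ra, Il20ra and Il20rb had means of 2.20, 1.42 and 1.08.

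Ligands and receptors were then paired from a list of 74 textbook pairs. Both partners were listed for 39 pairs and both had a mean of at least 1 for 15. Only the ligand was missing from the listed genes for 23 pairs, and only the receptor for 5. The directions below thus hold for the 15 pairs that passed and not for the whole list. Per kilobase, the ligand was lower than the receptor in 3 of 3 libraries for 8 pairs and higher for 5, and 2 pairs had no common direction. Besides Cxcl12, the ligands above their receptors were Ccl12 and Ccl7 over Ccr2 and Il15 over Il15ra. Ccl12 stood at 15.4 ± 7.97 per kilobase and Ccr2 at 1.83 ± 0.508, a log2 difference of 3.07 ± 0.62. As deposited, without division by length, Ccl12 and Ccl7 lay below Ccr2, so their direction rests on the exon lengths.

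The receptors above their ligands included the macrophage receptors Csf1r, Cx3cr1 and Ccr1. Csf1r stood at 37.3 (SD 6.5, n = 3) per kilobase and Il34 at 1.31 ± 0.298, a log2 difference of -4.36 ± 0.43. Ccr1 stood at 7.52 ± 1.41 against 2.34 ± 0.664 for Ccl9 and 2.81 ± 0.153 for Ccl6. Il1r1 stood at 4.05 ± 0.648 against 0.594 ± 0.0962 for Il1b and 0.199 ± 0.0601 for Il1rn. The smaller differences were those of Ccl25 below Ackr4 (-0.63 ± 0.47) and Il16 below Cd4 (-0.53 ± 0.35). As deposited, without division by length, Il16 lay above Cd4 (0.43). Ccl2 differed from Ccr2 by 0.42 ± 0.45 and from Ackr1 by 0.38 ± 1.01, values within their spread. Without the added 1, the per-kilobase mean of Ccl2 (1.73) lay below that of Ccr2 (1.83). Over the 15 pairs no exact permutation p lay below 0.25, the floor for n = 3, and the smallest Benjamini-Hochberg adjusted value was 0.288.

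**Figure D2:**
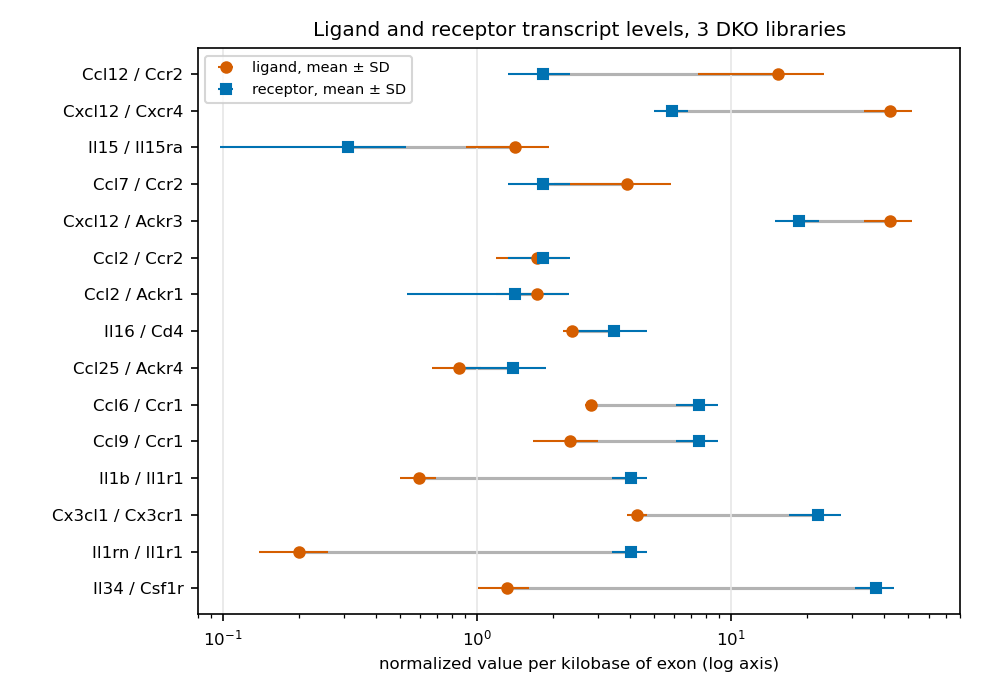
Mean ± SD over 3 DKO libraries of ligand (circles) and receptor (squares) values per kilobase of exon (log axis) for the 15 pairs with both partners at a mean of at least 1, ordered by the log2 difference of ligand and receptor. Cxcl12 lies above Cxcr4 and Ackr3, and Il34 and Cx3cl1 lie below Csf1r and Cx3cr1.

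Ordered by level per kilobase, the 19 members with a mean of at least 10 began with Cxcl14, Cxcl12, Il11ra1, Il6st, Cx3cr1 and Ackr3. They ended with Il1rl2, Il16, Il6ra and Ccr2. Of 18 neighbouring pairs in this order, 11 had overlapping ranges over the libraries. The steps without overlap lay below Cxcl14, Cxcl12, Ackr3, Il10rb, Cxcr4, Il10ra and Il16. Overlap of ranges does not compare genes within a library. In each library Il6st stood above Cx3cr1 and Cx3cr1 above Ackr3, although their ranges overlapped. Il11ra1 stood above Il6st except in replicate 2 (25.47 and 25.49 per kilobase), so the order of these neighbours is not resolved.

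Genes that carry the signals of these receptors were then listed. Of 33 signalling genes, 25 had a mean of at least 10 (75.8%, near the 66.5% of all protein-coding genes). For 2 of the 25, the ratio of the highest to the lowest library, on value + 1, was above 1.5. Of protein-coding genes at that level, 5.28% passed this ratio. The G-protein subunits Gnai2 and Gnai3, which chemokine receptors use, were at 271 ± 34.3 and 245 ± 8.37. Jak1, the kinase of gp130 and type 2 receptors, was at 203 ± 7.79, and Arrb1, which ends receptor signalling, at 197 ± 11.5. Stat3, the main factor downstream of gp130, was at 110, 113 and 132. Feedback inhibitors of the SOCS family were uneven, with Socs2 at 38.8, 41.6 and 33.2, Socs3 at 5.07, 5.27 and 5.92 and Socs1 at 2.71, 2.75 and 2.68.

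Cytokine and receptor genes outside the naming rule were counted too. Of 38 such genes, 16 had a mean of at least 10 (42.1%, against 66.5% of protein-coding genes), led by Csf1r (216 ± 37.5), Csf1 (114 ± 7.73), Tnfrsf1a (97.4 ± 7.51), Lifr (60.3 ± 4.25) and Il17rd (55.1 ± 4.41). Of the 2 ligands of Csf1r, Csf1 stood at 21.6 and Il34 at 1.31 per kilobase. Lif, Osm and Tnf were each below a mean of 1.

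Some members differed between libraries. Among the 19 members with a mean of at least 10, the ratio of the highest to the lowest library, taken on value + 1, was above 1.5 for 5 (26.3%), against 5.28% of the protein-coding genes at that level. The 5 were Cxcl12 (1.53), Cxcl14 (1.59), Cx3cr1 (1.59), Il1rl2 (1.56) and Ccr2 (1.70), all close to the threshold. Ackr3 (1.49) and Ccr1 (1.41) lay just below it. With the filter reapplied to the libraries kept, the count was 1 of 19 members without replicate 1, 4 of 21 without replicate 2 and 2 of 21 without replicate 3. Cxcl10, not among the 19, passed the filter without replicate 2 (mean 12.20) and without replicate 3 (12.15) and is in both of those counts. Leaving out a library can only lower or keep a gene's ratio, so lower counts are partly built in, although genes can enter through the reapplied filter. The share of protein-coding genes was not computed with a library left out, so the weight of each replicate is not measured.

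Members of higher and lower level differed in the library where they were highest. Of the 19, 13 were lowest in replicate 1 (68.4%, against 38.4% of protein-coding genes) and 15 were highest in replicate 3 (78.9%, against 34.9%). Only Cx3cl1 and Il1rl2 were highest in replicate 1 (10.5%, against 31.0%). Of the 28 members with a mean from 1 to below 10, 17 were highest in replicate 1 (60.7%, against 39.8%), among them 7 of 10 chemokine ligands, 4 of 5 interleukins or antagonists, 5 of 8 interleukin receptor chains and 0 of 3 chemokine receptors. A ratio above 1.5 was found for 16 of the 28 (57.1%, against 22.5%), and for 5 without replicate 1. With a pseudocount of 10 it was found for 3 of the 28. Leaving out a library or raising the pseudocount can only lower or keep a gene's ratio, and the 22.5% holds for the main setting alone. For a value of 1, an assumed 1 read per smallest value would mean a counting error of 15.3% to 17.1%. Il15ra, Il1rn and Il20rb, each highest in replicate 1, had means of 0.838, 0.953 and 0.859 without it. They passed the filter at 1 only through replicate 1, so the counts for that library are partly built in. These counts describe the libraries and are no test.

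**Figure D3:**
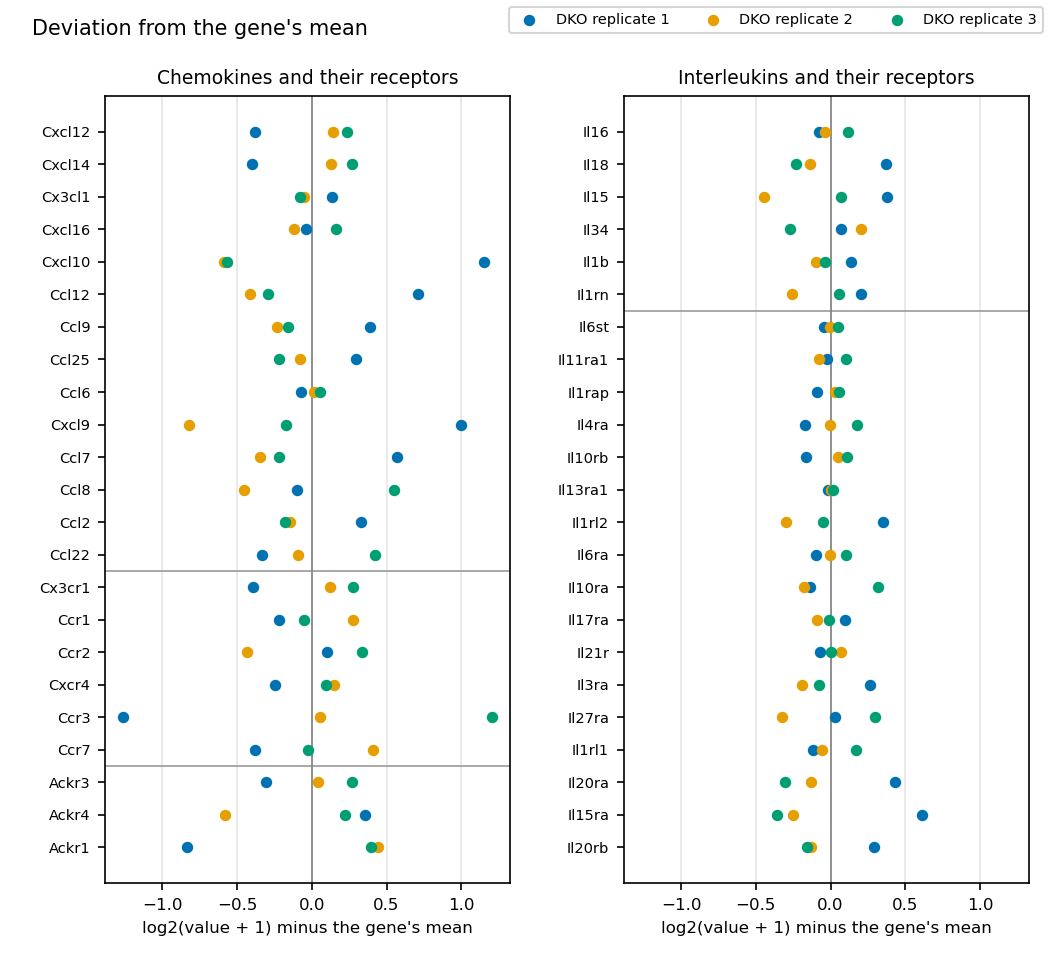
Deviation of each DKO library from the gene's mean on the log2(value + 1) scale for the reported members with a mean of at least 1; lines separate ligands, receptors and atypical receptors. Replicate 1 lies right of the mean for Cxcl10, Cxcl9, Ccl12 and Ccl7 and left of it for Cxcl12, Cxcl14, Cx3cr1 and Ackr3.

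The pattern of the abundant members was set beside the marker lists. Cxcl12, Cxcl14, Cx3cr1 and Ackr3 had means over replicates 2 and 3 that exceeded replicate 1 by 1.49-, 1.52-, 1.52- and 1.39-fold. Summed mesenchyme markers were at 2743, 2857 and 3039, summed mural markers at 768, 733 and 851 and summed dental epithelium markers at 496, 704 and 503. Replicate 3, where 15 of the 19 members were highest, was also highest for 6 of 6 endothelial and 5 of 8 macrophage markers. The T cell and B cell markers summed to at most 3.15 and 2.14 in any library, and the neutrophil markers to at most 4.75, so transcripts of these leukocytes were near the floor while macrophage transcripts were not. The part of each cell type in the chemokine and interleukin values was not tested.

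**Figure D4:**
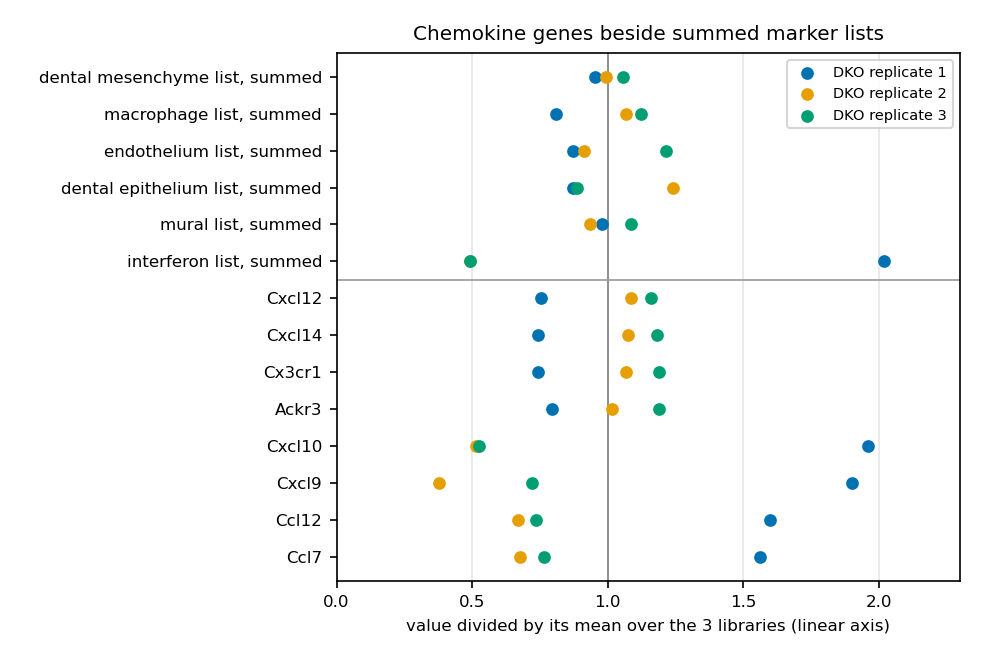
Values of 8 chemokine or receptor genes and of summed marker lists in each DKO library, divided by their mean over the 3 libraries (linear axis). Cxcl10 and the interferon list are highest in replicate 1, and Cx3cr1 and the macrophage list are lowest there; replicates 2 and 3 of the interferon list coincide at 379.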

How the data were processed

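RNA was sequenced from proximal incisor mesenchyme in 3 DKO libraries. Reads were aligned with TopHat2 2.0.8 to mm10, per the submitters' processing notes; for the counter, annotation, strand setting and low-value filter, the sources used here give nothing. The deposited values are normalized count signal, not divided by length, and the upper quartile over listed genes was 44.7 in each column. Each column was assigned to the library whose name holds the same number. Values were whole multiples (within 0.1) of the smallest value for 82.6%, 82.5% and 81.5% of genes, so no count model was used and depth in reads is unknown. Deposited gene starts matched GENCODE M21 for 71 of 72 members, and their stops lay 1 base past its ends. Exon length was the union of GENCODE exons, found for all 72. Logarithms were log2(value + 1), which understates differences of a low gene between libraries. For pairs, 1 was added before division by exon length. This raises a low, short gene more than a long one and can overstate or understate their difference. Ligands and receptors were compared within libraries by an exact sign-flip permutation test. Computation used Python 3.11.15, numpy 2.4.6, pandas 2.3.3 and scipy 1.17.1. The code for the ratio count was run on simulated data with a fixed noise that was not fitted to the spread of these libraries. That run therefore does not measure how often genes pass the ratio here without a change. Members, gene lists, pairs and tests were chosen with earlier results of these data known. Named genes were all members with a mean of at least 10, those of testable pairs, members from 1 to 10, and some leading genes of some lists. Genes named outside that rule (Irf1, Il18r1, Il1r2, Socs1, Socs2, Socs3, Stat3, Lif, Osm, Tnf and members below 1 with values) were chosen after their values were seen. Alternatives were other pseudocounts, filters, scaling by totals, length division and leaving out each library. A few members and list genes enter the counts but are not reported here by name.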

Additional observations from a re-analysis of the deposited data

How the results depend on the processing

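Counts of members at a mean of at least 1 and at least 10 stayed within 1.5-fold of the reported values with any library left out and with libraries rescaled to equal totals. At a mean of at least 100 there were 4 members and 6 signalling genes, and after division by exon length 8 members had a mean of at least 10. Among members with a mean of at least 10 over the libraries kept, those with a ratio above 1.5 numbered 1 to 4 with a library left out. With a pseudocount of 10 they numbered 3, with the filter at a mean of 1 they numbered 21 and with no filter 23. Members highest in replicate 1 numbered 4 of 21 without replicate 2 and 7 of 21 without replicate 3, 19 with the filter at 1 and 29 with no filter. Leaving out another library cannot stop a gene from being highest in replicate 1, so such rises are partly built in. The share of protein-coding genes was not computed for these settings with a library left out. Members with a mean from 1 to below 10 and a ratio above 1.5 numbered 5 to 11 with a library left out and 3 with a pseudocount of 10. Both changes can only lower or keep a gene's ratio, so part of these falls is built in. Without division by length the log2 difference of ligand and receptor turned to -2.16 for Ccl2 and Ccr2, -1.72 for Ccl7 and Ccr2, -0.59 for Ccl12 and Ccr2 and 0.43 for Il16 and Cd4; a pseudocount of 0.1 gave -0.019 for Ccl2 and Ccr2. With a library left out, Ccl2 minus Ackr1 ran from -0.20 (without replicate 1) to 0.68. The cause was not tested. The alternatives for the lowest and highest library, and those for members between 1 and 10, were chosen after seeing the data. No paired analysis was possible because there is only 1 group, and replicate numbers pair nothing across groups. Low values limit statements on members near or below 1.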

Other observations

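Members differed in whether their deposited values were whole multiples of the smallest value of the column. Values were whole multiples, within 0.1, in all 3 libraries for 63 of 72 members and in no library for 5, Cxcl12, Cxcl14 and Il11ra1 among them. In the others, Il6st and Il10rb were whole in 1 library and Ackr1 and Ccl19 in 2. Exon bases shared with another annotated gene were found for 18 members, 12 of them shared with a listed gene. Among those at a mean of at least 10, the largest shared parts were 18.3% of Cxcl16 (with Zmynd15, opposite strand), 15.3% of Il16 and 14.9% of Il10rb (with Gm21970, same strand). Cxcl10 shared 5.91% with Art3 on the opposite strand, and Art3 had a mean of 3.09. The choice of these genes followed a look at their values, and the handling of shared reads was not tested.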
